A study of Mus musculus with 8 samples.

Results

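The genes that transforming growth factor beta (TGF-b) moved in the same direction in wild-type (WT), Smad2 knockout (Smad2KO) and Smad3 knockout (Smad3KO) CD4 T cells are described here. All 6 arrays of these genotypes were used, of 8 arrays in the series: 1 array with TGF-b and 1 without it for each genotype, paired by genotype. The groups were WT, Smad2KO and Smad3KO cells with TGF-b at 2 ng/ml for 24 h, and the same genotypes cultured for 24 h with none added (0 ng/ml). Smad2KO carries a conditional deletion of both Smad2 alleles in T cells (Smad2del/del), Smad3KO is Smad3-/-, and all mice are labelled C57BL/6J. Every culture, with or without TGF-b, began from sorted naive splenic CD4 T cells and received plate-bound antibody to CD3e, antibodies to CD28, IFN-g and IL-4, and the growth factor IL-2. Whether different animals gave the cultures is not in the labels, so p-values reflect only how far these cultures differ, real genotype differences included. A pair labelled Smad2KO_Smad3het (Smad2del/del Smad3+/-) was kept out of the choice of genes and is used only as a further readout.

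TGF-b is a secreted cytokine whose receptor kinases phosphorylate Smad2 and Smad3, which then enter the nucleus with Smad4 and act with other transcription factors on target genes. In T cells it is known for restraining proliferation and effector functions and, in the presence of IL-2, for turning naive CD4 cells towards Foxp3-positive regulatory T cells. Smad3 binds DNA directly, whereas the common form of Smad2 does not.

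Signals are Affymetrix probe set intensities, scaled so that every array has the same 2% trimmed mean. Values below a floor of 32.3, the median of all scaled signals, were set to the floor before log2 was taken, and "at least" marks a fold whose dimmer signals lay under it. Values per array are given in the order WT, Smad2KO, Smad3KO. The 6 arrays resembled each other, with rank correlations across probe sets of 0.907 to 0.928. The summed signal of 6 T cell markers (Cd3d, Cd3e, Cd3g, Cd4, Cd5 and Cd28) was 23616 to 25316 with TGF-b and 24976 to 25116 without it. Cd4 itself read 1348, 1609 and 1439 with TGF-b, against 1628, 1512 and 1341 without it, so most of the sum came from the other markers. All B cell, gamma-delta T cell and erythroid markers measured stayed under 2 times the floor on all 6 arrays. Of 8 myeloid markers, 2 reached 2 times the floor (list sums of 148 to 197 with TGF-b and 207 to 262 without it), as did both CD8 markers (67.7 to 131 and 82.9 to 159.6). Of 3 NK markers, Nkg7 alone reached it, with sums over the list of 221 to 322 with TGF-b and 87.2 to 98.7 without it. The memory or effector list summed to 1629 to 2009 with TGF-b and 659 to 833 without it, and most of that signal was Il2rb. A probe set for 18S ribosomal RNA, a control on the array, read 182, 225 and 766 in TGF-b cultures and 3990.0, 78.9 and 906 in the cultures without it. The WT array without TGF-b was the highest. The part of these differences in the results was not tested. The brightest Smad2 probe set read 1023, 1038 and 953 with TGF-b, against 1060.2, 1146 and 986 without it, and the brightest Smad3 probe set read 544, 434 and 725 with TGF-b, against 148, 178 and 609 without it. The signals do not check the genotype labels, because the position of these probes with respect to the deleted stretch is unknown here.

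Across the 3 genotypes TGF-b raised the adenosine-producing ecto-enzyme Nt5e, the intermediate filament Vim, the chemokine receptors Ccr6 and Ccr8, the transcription factor Maf and a set of inhibitors of cytokine and TGF-b signalling. It lowered the Th1 transcription factor Stat4, the granzyme inhibitor Serpinb9, the MAP kinase phosphatase Dusp6, the surface receptor Slamf6 and several interferon-stimulated and cell cycle genes. The interferon-stimulated list was divided, with 12 falls and 8 rises among 52 tested. The mitosis list had a median log2 response of only -0.09 in Smad3KO, and none of its falls held without the WT pair. Of 9464 genes with a signal of at least 2 times the floor on 1 array, 677 rose (7.15%) and 534 fell (5.64%), 12.8% in all. The test was limma on the paired log2 values, with genotype as a block and Benjamini-Hochberg adjusted p under 0.05. Unadjusted p was under 0.05 for 1295 genes that read higher with TGF-b and 1367 that read lower. Counts of list members below are to be read against these shares of all genes.

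Most changes were modest. The median rise was 0.68 on the log2 scale, 1.60-fold, and 189 rises had a mean of 2-fold or more while 283 stayed under 1.5-fold. The median fall was -0.48, 1.39-fold lower, with 80 at 2-fold or more and 323 under 1.5-fold. Genes that were 2-fold higher in each of the 3 genotypes numbered 93 (0.983% of those tested), of which 87 also passed the test. Those 2-fold lower in each numbered 41 (0.433%), of which 37 passed. The TGF-b signals lay above every control signal for 1259 of all genes (13.3%) and below every one for 1350 (14.3%). That held for 601 of the 677 rises and 453 of the 534 falls, and the rest passed the paired test although their groups overlapped. The same signals gave the p-values, so the choice of genes favours groups that do not overlap. This also holds for the genes named below, where a lack of overlap describes the signals and is no further support.

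All 1211 changed genes moved the same way in the 3 genotypes, which the test favours, since it weighs the mean response against its spread. Their size differed between genotypes. The rises had median responses of 0.82 (WT), 0.65 (Smad2KO) and 0.54 (Smad3KO), and the median of the falls was -0.60, -0.53 and -0.34. WT had the largest response for 432 rises (63.8%, against 48.0% of all genes tested) and Smad3KO the smallest for 429 (63.4%, against 47.4%). Among the falls, the largest response was in WT for 323 and the smallest in Smad3KO for 358. With 1 pair per genotype these orders have no test. The responses of 8985 genes with every signal at or above the floor, unchanged genes included, also spread unequally. Their robust SDs (scaled median absolute deviations) were 0.34 in WT, 0.27 in Smad2KO and 0.21 in Smad3KO. Whether the sizes of the changed genes differ beyond this spread was not tested. The count of changed genes depended on the pairs: 262 rose and 164 fell without the WT pair, 569 and 342 without the Smad2KO pair, and 1012 and 988 without the Smad3KO pair. Plain limma, without a variance trend or robust settings, gave 267 rises and 125 falls.

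**Figure D1:**
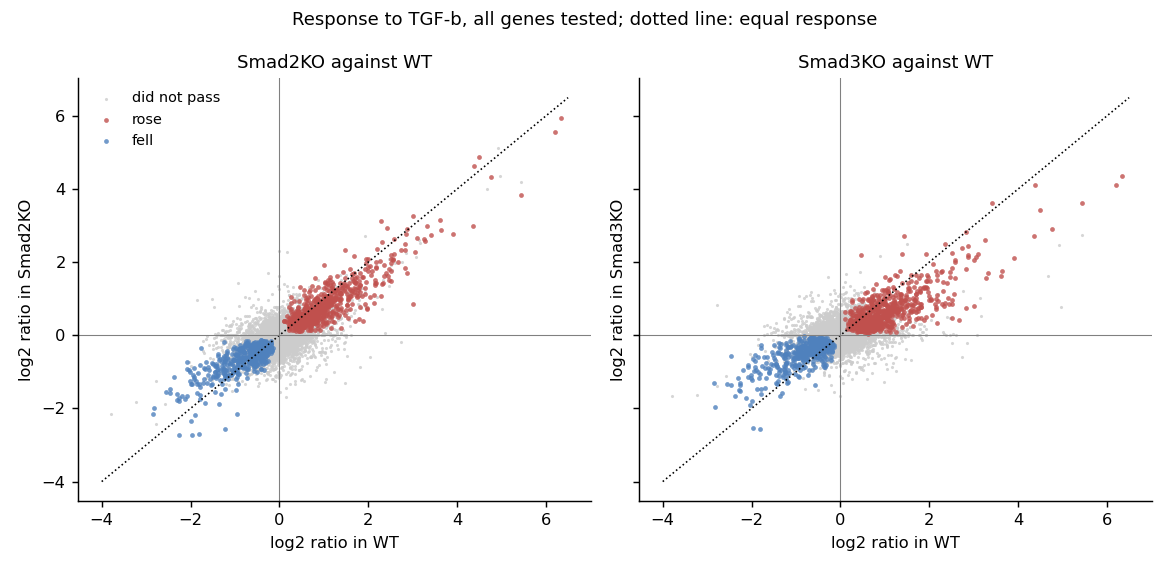
Log2 ratio of the signal with TGF-b over that without it for the 9464 genes tested, in Smad2KO (left, y axis) and Smad3KO (right, y axis) against WT (x axis), with 1 pair of arrays per genotype. Points of the 677 rises (red) and 534 falls (blue) lie on the same side of 0 on both axes. In Smad3KO most lie nearer to 0 than the dotted line of equal response, with medians of 0.54 and -0.34 against 0.82 and -0.60 in WT. Responses of genes with every signal at or above the floor also spread less in Smad3KO (robust SD of 0.21) than in WT (0.34).

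The rises with the smallest p had responses of similar size in the 3 genotypes, which the choice by paired p favours. Nt5e, which turns extracellular AMP into adenosine, read 2138, 808 and 822 with TGF-b, against 102, 32.5 and 47.4 without it. Each TGF-b signal was far above every control signal, and the mean response was 4.38 ± 0.14 (SE, 3 pairs; limma adjusted p = 1.06e-08), 20.8-fold higher. The intermediate filament gene Vim read 4046, 2485 and 3244 with TGF-b, against 609.5, 495 and 624 without it. Its groups did not overlap, and the response was 2.48 ± 0.09 (adjusted p = 3.80e-08). Pdgfb, a growth factor for mesenchymal cells, read 1978, 1620.0 and 1888 with TGF-b, against 523, 461 and 406 without it, and the carboxypeptidase Cpd read 2306, 1924 and 1658 with TGF-b, against 599, 492 and 528 without it. Neither gene's groups overlapped, and the mean responses were 1.98 ± 0.09 and 1.85 ± 0.09. The others of this group of 10 were the methyltransferase Hemk1 (2.26), Plp2 (1.25), Cish, Dusp4, Pmepa1 and Ccr6, which are described with their families.

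The falls with the smallest p were smaller in size. Stat4, which carries the IL-12 signal, read 174, 247 and 235 with TGF-b, against 432, 754 and 698 without it. The 2 groups did not overlap, and Stat4 was 2.82-fold lower (limma adjusted p = 7.29e-06). Serpinb9, an inhibitor of granzyme B, read 75.4, 83.4 and 119.8 with TGF-b, against 301, 425 and 413 without it, and was 4.12-fold lower. Every TGF-b value of Serpinb9 was well under the lowest control value. Snx9, a membrane-remodelling protein of endocytosis, changed by -1.53 ± 0.12 on the log2 scale, the organic anion transporter Slco4a1 by -1.85 ± 0.16, and the endosome tether Eea1 by -0.89 ± 0.08. Another 2 genes of this group are known mainly from other cells: Afp, the fetal serum protein alpha-fetoprotein, read 465, 687 and 542 with TGF-b, against 1078, 1323 and 1143 without it, and Pou2af1, a B cell coactivator of octamer-binding factors, read 681, 650.2 and 708 with TGF-b, against 1446, 1389 and 1274 without it. In both, the TGF-b signals lay under every control signal. The remaining falls of this group were Dusp6, Slamf6 and Mndal, described below.

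**Figure D2:**
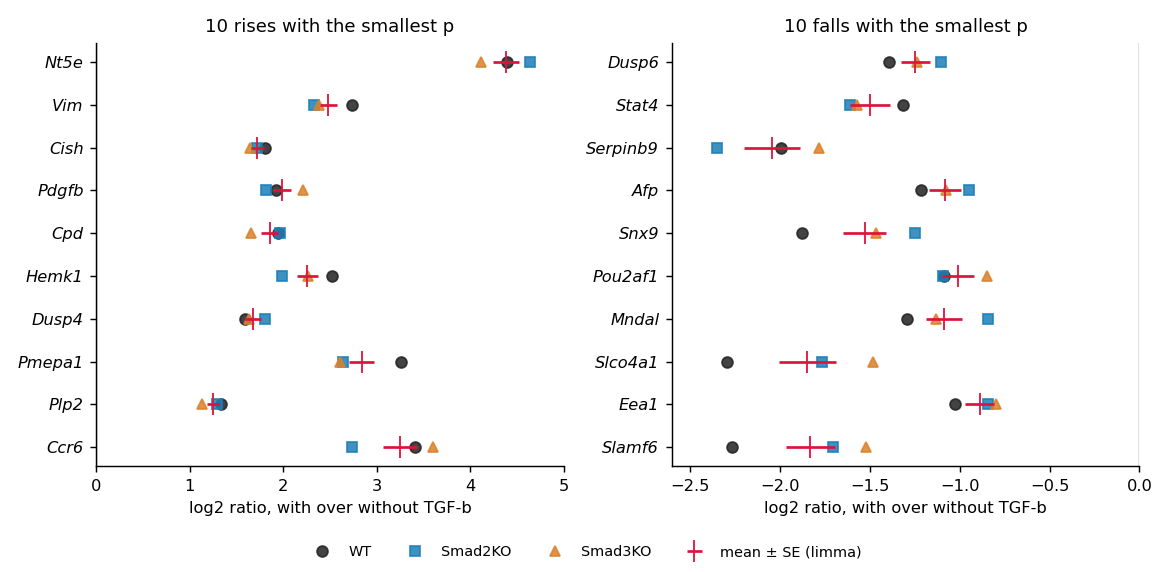
Log2 ratio of the signal with TGF-b over that without it (x axis) for the 10 rises (left) and the 10 falls (right) with the smallest limma p (y axis, genes). Points are WT, Smad2KO and Smad3KO, 1 pair of arrays each, and crosses are means with SE. All 3 genotypes lie on one side of 0 for all 20 genes, and Nt5e spans only 4.11 to 4.64.

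Promoter sequences are shown for 2 of these rises and 2 of these falls to let the motifs be seen in place. They run from 250 bases before to 50 bases after the first listed start of the gene, from RefSeq on GRCm38.p6, 5′ to 3′ on the gene's strand. Capitals mark matches, on either strand, to CAGACA (a Smad box), GTCTAGAC (the palindromic Smad element), TGANTCA (the AP-1 site) or GAAANNGAA (a core of interferon response elements). Nt5e (chr9:88327359-88327658, plus strand) has 1 Smad box on its opposite strand, Vim (chr2:13574061-13574360, plus strand) has no match, Serpinb9 (chr13:33004291-33004590, plus strand) has 1 GAAANNGAA on its opposite strand, and Mndal (chr1:173880138-173880437, minus strand) has 1 TGANTCA and 1 GAAANNGAA.
Nt5e: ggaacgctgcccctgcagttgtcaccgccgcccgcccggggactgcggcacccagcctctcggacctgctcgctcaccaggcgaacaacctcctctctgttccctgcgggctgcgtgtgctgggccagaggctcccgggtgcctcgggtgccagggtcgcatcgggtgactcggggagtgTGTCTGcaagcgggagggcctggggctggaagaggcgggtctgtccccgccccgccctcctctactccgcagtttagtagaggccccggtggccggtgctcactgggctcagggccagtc
Vim: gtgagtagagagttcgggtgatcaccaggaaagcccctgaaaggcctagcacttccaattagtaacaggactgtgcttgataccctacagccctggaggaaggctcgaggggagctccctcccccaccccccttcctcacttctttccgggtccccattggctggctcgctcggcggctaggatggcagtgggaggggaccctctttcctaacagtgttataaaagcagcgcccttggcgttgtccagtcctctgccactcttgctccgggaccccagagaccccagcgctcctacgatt
Serpinb9: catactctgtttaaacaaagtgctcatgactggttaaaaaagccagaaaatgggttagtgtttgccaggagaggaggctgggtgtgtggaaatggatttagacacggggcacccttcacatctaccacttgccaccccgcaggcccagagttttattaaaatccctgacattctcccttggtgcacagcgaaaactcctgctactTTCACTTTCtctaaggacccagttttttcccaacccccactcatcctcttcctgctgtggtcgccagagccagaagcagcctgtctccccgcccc
Mndal: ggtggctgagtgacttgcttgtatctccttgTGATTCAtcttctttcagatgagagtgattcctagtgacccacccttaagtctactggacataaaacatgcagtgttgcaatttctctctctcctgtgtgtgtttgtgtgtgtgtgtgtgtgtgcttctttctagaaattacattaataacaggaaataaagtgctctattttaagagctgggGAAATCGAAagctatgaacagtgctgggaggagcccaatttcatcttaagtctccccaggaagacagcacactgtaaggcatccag

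Promoters were available for 558 rises, 435 falls and 7790 of all genes tested. CAGACA was present in 17.9% of the rises, 15.2% of the falls and 15.0% of all. GTCTAGAC was in 2 rises (0.358%) and 1 fall (0.23%), against 0.27% of all. TGANTCA was in 5.02% of the rises and 5.29% of the falls, against 4.3% of all, and GAAANNGAA in 6.45% and 9.66%, against 7.03%. No share of the rises or falls was more than 1.5 times that of all genes. Matches are letters in a short window and say nothing of binding, and their absence says nothing of the factor.

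Several of the largest rises were genes with little or no signal in the absence of TGF-b, while Socs2 and Pmepa1 were well above the floor without it. Maf, a transcription factor of Th2, Th17 and regulatory T cell genes, read 2618, 1977 and 660.1 with TGF-b, against 2.26, 10.4 and 13.9 without it. All its control signals lay under the floor, and Maf was at least 46.7-fold higher (limma adjusted p = 0.00827). Ccr8, the receptor of the chemokine Ccl1, read 2366, 1509.7 and 559 with TGF-b, against 25.6, 21.6 and 31.9 without it, and was at least 39.0-fold higher. In both genes the Smad3KO signal with TGF-b was the lowest of the 3 but far above every control. Adam19, a membrane metalloprotease, read 1411, 969.9 and 501 with TGF-b, against 23.03, 67.7 and 40.9 without it, and Aqp3, a channel for water and glycerol, read 1458, 1118 and 426 with TGF-b, against 64.3, 38.3 and 39.7 without it. They were at least 19.7-fold higher and 19.2-fold higher, with no overlap of the groups. Kctd14 (3.36) and the unconventional myosin Myo6 (at least 2.93) completed the 10 largest rises with Nt5e, Socs2, Ccr6 and Pmepa1. The probe set that stood for Kctd14 may also detect related sequences.

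The largest falls included Eomes and the cytotoxic effector Gzmb. Of 7 tested genes of the cytotoxic and NK list, 2 fell and 1 rose, with a median of 0.07. Eomes, the T-box factor of cytotoxic and memory T cells, read 5.79, 1.49 and 17.7 with TGF-b, against 126, 213 and 187 without it, so all its TGF-b signals lay under the floor, and it was at least 5.31-fold lower. Gzmb, the protease granzyme B, read 1.20, 31.5 and 34.8 with TGF-b, against 113, 208 and 205 without it, and was at least 5.10-fold lower. The serpin Serpinb6b (-2.10), Lypd6b (-2.26), Cth, an enzyme of cysteine synthesis (-2.10), and Bspry (-1.87) came next in size, together with Serpinb9, Slco4a1, Slamf6 and the potassium channel Kcna3. In bulk cultures, fewer cells with a message and less message per cell cannot be told apart.

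**Figure D3:**
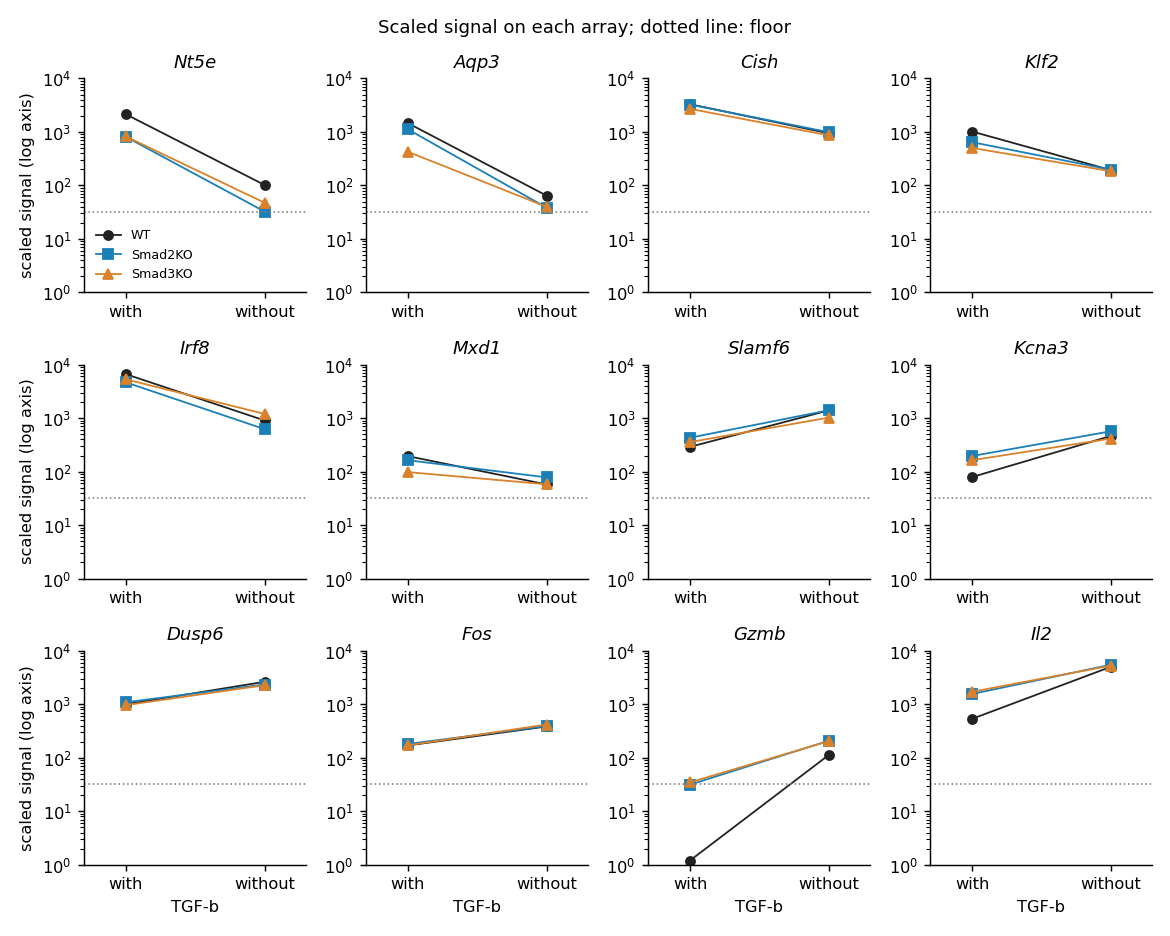
Scaled signal (y axis, log scale) with TGF-b (left) and without it (right) in WT, Smad2KO and Smad3KO, 1 array per point, for 12 genes. Dotted lines mark the floor of 32.3. The lines of Nt5e, Aqp3, Cish, Klf2, Irf8 and Mxd1 run higher with TGF-b in every genotype and those of Slamf6, Kcna3, Dusp6, Fos, Gzmb and Il2 lower, with Il2 the only 1 of the 12 that did not pass the test.

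The pathway's own inhibitors rose more often than genes in general. Of 17 tested genes of TGF-b feedback, 8 rose and 1 fell (47.1% and 5.88%, against 7.15% and 5.64% of all genes), with a median response of 0.31 against -0.02 over all genes. Pmepa1, which keeps Smads from the receptor, read 1619, 1169 and 1004 with TGF-b, against 169, 187 and 165 without it, and was 7.15-fold higher (limma adjusted p = 8.17e-07). Skil, a corepressor of Smads also called SnoN, read 2145, 1907 and 1825 with TGF-b, against 558, 445 and 656 without it. Its relative Ski rose by 1.28, Klf10, a TGF-b early-response factor, by 1.93, and Spsb1, a ubiquitin ligase adaptor for the type 2 receptor, by 1.91. Smad7, the inhibitory Smad, read 392, 434 and 307 with TGF-b, against 179, 151 and 179 without it, and was 2.21-fold higher (adjusted p = 4.76e-04). The corepressor Tgif2 fell (-0.36). Receptors of the superfamily also rose, 6 of 9 tested (66.7%) and none falling by limma (0 also at an unadjusted p under 0.05), with a median of 0.68. Tgfbr1, the type 1 receptor kinase, read 3885, 4115 and 1909.5 with TGF-b, against 482, 426 and 454 without it, with the Smad3KO signal the lowest of the 3 with TGF-b. Bmpr2 and Acvr2a, type 2 receptors for BMPs and activins, responded by 1.70 and 1.56. Without the WT pair, 6 of the feedback genes and 5 of the receptors rose.

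Receptor chains and transducers of the IL-2 signal rose. Il2ra and Il2rb, the alpha and beta chains of the IL-2 receptor, read 2937, 2559 and 2252 with TGF-b, against 1365, 1389 and 1248 without it, and 1809.5, 1862 and 1518 with TGF-b, against 632, 747 and 564 without it. The beta chain was 2.68-fold higher in the mean (limma adjusted p = 9.19e-07), and neither gene's groups overlapped. Of 6 STAT genes, Stat5b (0.96), Stat5a (0.72) and Stat3 (0.39) rose and Stat4 fell. The first of these read 1562, 1448 and 941 with TGF-b, against 694, 758 and 549 without it. Of 15 inhibitors of cytokine signalling, 4 rose and 2 fell. Cish, induced by Stat5 and an inhibitor of IL-2 and TCR signals, read 3294, 3249 and 2700.4 with TGF-b, against 942, 989.6 and 862 without it, nearly the same size in each genotype (1.81, 1.72 and 1.65). Socs2 read 3298, 3074 and 842 with TGF-b, against 121, 152 and 113 without it and passed narrowly (adjusted p = 0.0491), with a smaller response in Smad3KO. Socs3, read by a probe set that may also detect related sequences, and Socs1 responded by 1.63 and 1.46. The protein tyrosine phosphatase Ptpn6 (-0.27) and the adaptor Sh2b3 (-0.41) fell. Il2 itself read 535, 1559 and 1716 with TGF-b, against 5029, 5496 and 5289 without it, at least 2-fold lower in each genotype, but with an SE of 0.46 on a mean of -2.23 it did not pass (adjusted p = 0.124). The Il2 responses were -3.23, -1.82 and -1.62 in WT, Smad2KO and Smad3KO. 2 of the STAT genes and all 4 inhibitors rose without the WT pair.

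Surface receptors were spread over both directions. Among 14 chemokine and homing receptors, 6 rose and 1 fell, with a median of 0.68. Ccr6, the receptor of Ccl20 and known on Th17 and regulatory T cells, read 585, 459 and 557 with TGF-b, against 55.1, 69.1 and 45.8 without it, and was 9.50-fold higher. Ccr4 (1.25), the P-selectin ligand Selplg (1.17) and S1pr1, the receptor for exit from lymph nodes (1.16), also rose, and the oxysterol receptor Gpr183 fell (-0.94). Of 12 integrin subunits, Itgb2 (0.93), Itga6 (0.68), Itgb7 (0.63) and Itgav (0.47) rose, while Itga3 (-1.15) and Itgb5 (-0.68) fell. Those were 33.3% and 16.7% of the list, against 7.15% and 5.64% of all genes. Of 9 genes listed under extracellular nucleotides and adenosine, Nt5e rose with the nucleoside transporter Slc29a1 (0.88) and the G protein-coupled receptor P2ry10 (0.38). The last is on the list by its P2Y-type name only. None of the 9 fell by limma (0 also at an unadjusted p under 0.05). With the WT pair left out, 4 homing receptors and 2 genes of the nucleotide list rose.

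The SLAM receptors fell more often than they rose. These are homotypic adhesion receptors of lymphocytes that signal through small SAP adaptors. Of 8 tested members, 4 fell (5.64% of all genes did) and 1 rose, with a median of -0.53. Slamf6 read 290.3, 430.3 and 356 with TGF-b, against 1396, 1402 and 1022 without it, with no overlap and a mean 3.56-fold lower (limma adjusted p = 3.65e-05). Cd84 read 377, 357 and 406 with TGF-b, against 768, 571 and 840.0 without it. Slamf1 (-0.63) and Ly9 (-0.44) fell less, and Sh2d1a, the SAP adaptor itself, rose (0.71). Without the WT pair, 3 fell and 1 rose.

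The TNF family was divided, with 5 of 28 members rising and 5 falling (17.9% each, against 7.15% and 5.64% of all genes). Lta, which encodes lymphotoxin alpha, read 6769, 5142 and 5198 with TGF-b, against 1497, 1420.1 and 1811 without it, and the death-domain receptor Tnfrsf25 read 1177, 872 and 486 with TGF-b, against 212, 247 and 145 without it. They were 3.61-fold higher and 4.04-fold higher, with no overlap of the groups. Tnfrsf1b (1.12), Tnfrsf13b (1.01) and Ltb (0.74) rose less. The falls were 4 ligands and the costimulatory receptor Cd27: Tnfsf8 (-1.17), Cd40lg (-0.86), Tnfsf4 (-0.84), Fasl (-0.56) and Cd27 (-0.72). Cd40lg, the ligand through which T cells help B cells, read 74.3 to 98.3 with TGF-b, against 144 to 184 without it. Among 22 costimulatory and inhibitory receptors, 6 rose and 4 fell. The adhesion receptor Cd2 (1.32), the adaptor Sit1 (1.44) and Cd96 (1.00) rose, and Crtam (-1.39) and the PD-1 ligands Pdcd1lg2 (-0.65) and Cd274 (-0.64) fell. Crtam, a receptor of activated cytotoxic-type T cells, read 218, 419 and 581 with TGF-b, against 795, 1048 and 1160.3 without it. 5 TNF family genes rose and 3 fell, and 4 of the costimulatory list rose and 5 fell without the WT pair.

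Secreted factors that rose included growth factors as well as interleukins. Of 17 cytokine genes 6 rose and 2 fell (35.3% and 11.8%, against 7.15% and 5.64% of all genes). Hbegf, an EGF receptor ligand, read 508, 303 and 147 with TGF-b, against 50.5, 37.8 and 44.8 without it, and was 6.42-fold higher. The IL-6 family cytokines Lif (1.41) and Osm (0.86) rose, as did Il16 (0.68) and Tgfb1 itself (0.39). Il3, a growth factor of myeloid progenitors (-1.16), and Ebi3, a subunit of IL-27 and IL-35 (-1.15 or lower), fell. Of 8 chemokines, Ccl1, the ligand of Ccr8, rose (1.59), Xcl1 rose (1.18) and Ccl4 fell (-0.73), so that 25% rose and 12.5% fell. Among 26 cytokine receptors 7 rose and 3 fell. Besides the IL-2 receptor chains, Il6ra (1.34), Il7r (0.93) and Il18r1 (at least 1.83) rose, and Il15ra (-1.22), Il1rl2 (-0.77) and the IL-12 receptor chain Il12rb1 (-0.74) fell. Il12rb1 read 262 to 501 with TGF-b, against 578 to 640.5 without it. With the WT pair left out, 4 cytokine receptors rose and none fell, 4 cytokines rose and 3 fell, and 1 chemokine rose and 1 fell. With plain limma 1 chemokine rose and none fell.

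Proteases and their inhibitors changed in both directions. Furin, the convertase that cleaves pro-TGF-b, read 992, 711 and 703 with TGF-b, against 347, 328 and 305 without it, and was 2.43-fold higher (limma adjusted p = 1.56e-05). Of 15 Adam, Mmp and related genes 4 rose and 1 fell, led by Adam19 and Cpd. Of 21 cathepsins, serpins and cystatins 4 rose and 4 fell. Among those that passed, the cathepsin Ctsl rose (0.98). The falls were Serpinb6b, Serpinb9, Cst7, an inhibitor of cathepsins that activate granzymes (-1.62), and Serpinc1 (-0.98). Larger rises of Ctla2a (at least 4.17), Ctsw (at least 4.13) and Ctla2b (at least 3.43) did not pass (limma adjusted p = 0.0725, 0.0871 and 0.0981). Cst7 read 315, 572 and 777 with TGF-b, against 1342, 1801 and 1696 without it. The inhibitors of granzyme B and of granzyme processing moved in the same direction as Gzmb in all 3 genotypes.

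Cytoskeletal and membrane-scaffold genes rose more than they fell. Of 42 genes of actin, tubulin and intermediate filaments 10 rose (23.8%) and 2 fell. Capg, which caps actin filaments, read 6278, 6449 and 2815 with TGF-b, against 1051, 1039 and 702 without it, and was 5.30-fold higher. Marcks (at least 1.67), the actin oxidase Mical1 (1.495) and the linker Plec (1.03) rose, and the tropomyosin Tpm1 (-0.77) and Marcksl1 (-0.42) fell. Of 13 S100, annexin, galectin and Ahnak genes 6 rose and 1 fell, with a median of 0.84. Lgals3, a galectin, read 403, 163 and 113 with TGF-b, against 56.4, 22.0 and 11.0 without it, and was at least 5.01-fold higher. The scaffold Ahnak (1.37), Anxa4 (1.15), S100a13 (1.07) and Anxa2 (0.84) rose, and Anxa7 fell (-0.28). Without the WT pair, 4 of the S100 and annexin list and 8 of the cytoskeletal list rose, and 0 and 1 fell.

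Kinases of the antigen receptor pathway changed by smaller amounts. Of 30 genes 8 rose (26.7%, against 7.15% of all genes) and 2 fell (6.67%, close to the 5.64% of all), with a median of 0.05. The Tec kinases Tec (1.12) and Txk (0.82), the adaptor Grap2 (1.04), the phosphatase Ubash3b (0.88) and Plcg1 (0.39) rose. Zap70, the kinase bound to the receptor's zeta chain (-0.27) and the adaptor Lcp2 (-0.32) fell. Without the WT pair or without the genotype block, 1 of the 30 rose and 1 fell. The MAP kinase phosphatases were divided. Dusp4 read 1572, 1666 and 1869 with TGF-b, against 524, 478 and 601 without it, with responses between 1.58 and 1.80, and Dusp5 rose by 1.10. Dusp6, which inactivates ERK in the cytoplasm, read 1002, 1092 and 965 with TGF-b, against 2634, 2346 and 2277 without it (limma adjusted p = 2.10e-06), and Dusp16 (-0.93), Dusp2 (-0.40) and Spry1 (-0.31) also fell. 2 phosphatase or Sprouty genes fell without the WT pair.

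Immediate early genes were likewise divided. Of 25 Egr, Nr4a, AP-1 and NFAT genes 5 rose and 7 fell. Fos read 170.3, 182 and 171 with TGF-b, against 385, 392 and 419 without it, with responses of similar size (-1.18, -1.11 and -1.29), and Egr1 read 2667, 2381 and 2328 with TGF-b, against 4739.9, 4415 and 3521 without it. Fosl1 (-0.94), Nab2 (-0.88) and Nr4a2 (-0.62) fell too. Nr4a3, a nuclear receptor induced by antigen receptor signals, rose and read 3347, 3453 and 3536 with TGF-b, against 1736, 2060.1 and 2003 without it. Ier3 (at least 1.20), Nfatc2 (0.84), Jun (0.66) and Rcan1 (0.52) rose as well. Of 22 NF-kB genes, Malt1 (1.17), Bcl3 (1.03), Tnip1 (0.41) and Ikbke (0.37) rose, and 5 fell, led by Traf1 (-0.72) and the subunit Rel (-0.71). Those were 18.2% and 22.7% of the list, against 7.15% and 5.64% of all genes. With the WT pair left out, 2 immediate early genes rose and 6 fell, and 2 NF-kB genes rose and 2 fell.

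Lineage transcription factors rose in 10 of 28 cases and fell in 4. Foxp3, the defining factor of regulatory T cells, read 399, 286 and 99.5 with TGF-b, against 2.75, 24.5 and 20.5 without it, with all controls under the floor, and was at least 6.96-fold higher (limma adjusted p = 0.00215). Ahr, a ligand-activated factor of Th17 and other T cells, read 490.4, 437 and 299 with TGF-b, against 67.5, 64.6 and 54.8 without it, and Rora, an orphan receptor of Th17 cells, read 553, 275 and 382 with TGF-b, against 108, 73.2 and 67.4 without it. Both had responses of similar size in the 3 genotypes (2.86, 2.76 and 2.45 and 2.35, 1.91 and 2.50). Ikzf4, the factor Eos of regulatory T cells, rose by 1.86. Among lineage factors that did not pass, Gata3 read 162 to 192 with TGF-b, against 115 to 178 without it (0.37, adjusted p = 0.163) and Tbx21 read 9.73 to 137 with TGF-b, against 29.6 to 113 without it (-0.16, adjusted p = 0.752). Besides Eomes, the falls were Satb1 (-0.33), Batf (-0.33) and Ikzf1 (-0.32). Among 10 interferon regulatory factors, Irf8 stood out and read 6634, 4663 and 5311 with TGF-b, against 905, 622 and 1197 without it, 6.25-fold higher. Irf4 rose slightly (0.40) and Irf2, on a probe set that may also detect related sequences, fell (-0.56). Without the WT pair, 7 lineage factors rose and 1 fell, and Irf2 did not pass.

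Of 23 naive and quiescence genes 9 rose (39.1%), 1 fell and 13 did not pass, with a median of 0.21. Klf2, which maintains quiescence and homing genes, read 1018, 644 and 501 with TGF-b, against 193, 197 and 184 without it, and was 3.60-fold higher (limma adjusted p = 1.60e-04). Foxo1 (1.09), Tsc22d3, also called Gilz (1.08), and Pik3ip1, an inhibitor of PI3 kinase (at least 0.97), rose. S1pr1, a target of Klf2, read 124 to 208 with TGF-b, against 67.9 to 94.7 without it. Among 9 Kruppel-like factors 5 rose and none fell by limma (0 also at an unadjusted p under 0.05), with a median of 0.51: Klf10, Klf2, Klf9 (0.99), Klf6 (0.88) and Klf13 (0.51). 5 of the 23 and 2 of the 9 rose without the WT pair. Among the relatives of Myc, the antagonists Mxd4 and Mxd1 rose, and Mxd1 read 195, 163 and 97.9 with TGF-b, against 57.5, 78.0 and 57.9 without it. Mxd4 was at least 3.61-fold higher. Myc was 1.18-fold lower (-0.23), and none of these 3 changes passed without the WT pair or with plain limma. The Id proteins Id1 (1.76) and Id2 (0.89), which block E proteins, and the cyclin-dependent kinase inhibitor Cdkn1b (0.76) rose. Id3 read 472 to 1042 with TGF-b, against 1278 to 1553 without it and did not pass (adjusted p = 0.142).

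Survival genes of the Bcl2 family moved in opposite directions. Bcl2, which opposes apoptosis, read 915, 1272 and 682 with TGF-b, against 375, 539 and 427 without it. Bcl2l11, the pro-apoptotic Bim, read 258, 490.3 and 535 with TGF-b, against 1038, 991 and 1198 without it, and was 2.63-fold lower. Bak1 (-0.74) and Bid (-0.41), both pro-apoptotic, fell as well, and 9 of the 13 members did not pass. The share that rose, 7.69%, was close to the 7.15% of all genes, and 23.1% fell, against 5.64%. With plain limma or without the WT pair, 1 rose and 1 fell.

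Ion channels were among the larger changes. Of 40 tested channel genes 9 rose and 5 fell. The potassium channel Kcna3, Kv1.3, which sustains calcium entry in activated T cells, read 79.1, 196 and 164 with TGF-b, against 464, 568 and 415 without it, and was 3.51-fold lower. Kcna2 fell (-1.07 or lower), and the leak channel Kcnk6 rose (1.65), as did Lrrc8c (1.07), Kcnf1 (0.95) and Kcnk5 (0.86). The store-operated calcium channel gene Orai1 fell (-0.35). Enzymes that build surface glycans changed in 20 of 49 cases, 13 rising and 7 falling. St8sia1, which makes the ganglioside GD3, read 1372, 929 and 365 with TGF-b, against 269, 303 and 199 without it, and passed narrowly (limma adjusted p = 0.0434). The selectin-ligand fucosyltransferase Fut7 rose (at least 1.38), and the sulfotransferase Chst15 (-1.54 or lower), St3gal1 (-1.31), Chst2 (-1.19) and Galnt3 (-1.13) fell. With the WT pair left out, 4 glycan genes rose and 2 fell, as did 4 and 2 channel genes. Other signalling changes were the fall of Rgs2, a brake on G protein signals (-1.12), and of the semaphorin receptor Plxnc1 (-1.51), and the rise of Pde4d, which degrades cAMP (0.93), and of the cholesterol exporter Abca1 (1.46).

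**Figure D4:**
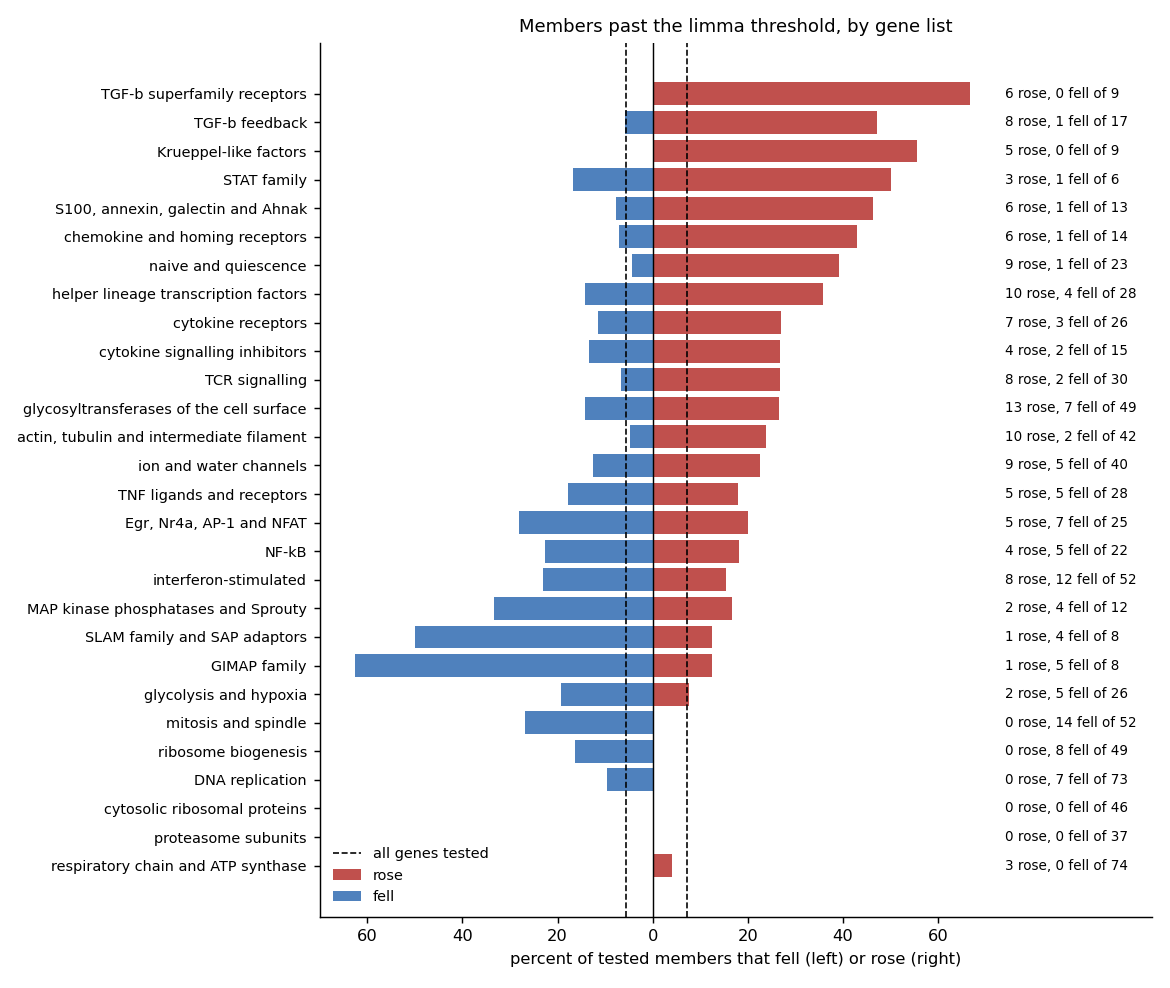
Percent of tested members that rose (red, right) or fell (blue, left) on the x axis, for 28 of the gene lists (y axis), with counts at the right. Dashed lines mark 7.15% rising and 5.64% falling among all genes tested. Receptors of the TGF-b superfamily had 6 rises among 9 members, the GIMAP family 5 falls among 8, and ribosomal proteins and proteasome subunits no member that passed.

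Interferon-stimulated genes changed in both directions, with the falls larger. Of 52 tested, 12 fell (23.1%) and 8 rose (15.4%), with a median of -0.18. Ifih1, the RNA sensor MDA5, read 82.8, 190.1 and 167 with TGF-b, against 411, 582 and 375 without it, and was 3.25-fold lower. Ifi209 (-1.73), Ms4a4c (-1.76), Ifitm3 (-1.57) and Ifitm1 (-1.64 or lower) fell as well. Ms4a4c, Mndal and Ifi35 were read by probe sets that may detect several relatives. Mndal, of the interferon-inducible p200 family, read 618, 1021 and 339 with TGF-b, against 1511, 1831 and 741 without it. Among the rises, the immunity-related GTPases Ifi47 (1.04) and Igtp (0.78), the antiviral gene Ifit3 (at least 1.03) and Ifi35 (0.84) were the largest 4 of the 8. Ifi47 read 5457, 5044 and 3356 with TGF-b, against 2069.6, 2273 and 2256 without it. In promoters of the list, GAAANNGAA was present in 23 of 41 (56.1%, against 7.03% of all genes), TGANTCA in 13 (31.7%, against 4.3%), CAGACA in 5 (12.2%, against 15.0%) and GTCTAGAC in none. These shares describe the list as drawn up, in which 32 of the 52 tested did not pass, and not its response to TGF-b. In the 9 available promoters of the TGF-b feedback list, CAGACA was present in 4 (44.4%), GAAANNGAA in 1 (11.1%) and the other 2 motifs in none. Antibody to IFN-g was in every culture, and without the WT pair 4 interferon-stimulated genes rose and 9 fell.

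The GIMAP genes, a cluster of GTPases that support lymphocyte survival, mostly fell. Of 8 members 5 fell (62.5%) and 1 rose, with a median of -0.41. Gimap5 read 95.1, 169.6 and 143 with TGF-b, against 224, 265 and 244 without it, Gimap7 read 91.8, 189.8 and 97.8 with TGF-b, against 159, 261 and 179 without it, and Gimap6 (-0.59), Gimap1 (-0.46) and Gimap4 (-0.36) fell less. Gimap8 rose (0.33). With plain limma, and likewise without the WT pair, 2 fell and none rose. Of 20 tetraspanin and Ms4a genes 5 fell and 1 rose, among them Ms4a4b (-0.73), Ms4a6b (-0.92) and Cd53 (-0.87). In the cytotoxic and NK list, Gzmb and Clec2i (-1.34) fell and Nkg7 rose, reading 299.8, 218 and 234 with TGF-b, against 87.7, 92.5 and 79.3 without it.

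Cell cycle genes were lower by small amounts that differed between genotypes. Of 52 genes of mitosis and the spindle 14 fell (26.9%) and none rose by limma, with a median of -0.29. At an unadjusted p under 0.05, 31 were lower and 0 higher, against 1367 and 1295 of all 9464 genes. The responses lay below 0 for 45 members in WT, 48 in Smad2KO and 37 in Smad3KO, with medians of -0.35, -0.35 and -0.09. Ect2, an exchange factor of cytokinesis, read 273, 327 and 447 with TGF-b, against 619, 501 and 563 without it, and the kinase Aurkb, on a probe set that may detect relatives, read 441, 400.4 and 743 with TGF-b, against 786, 730.2 and 852 without it. Foxm1, a transcription factor of mitotic genes (-0.58), Cenpa (-0.51) and Cdca3 (-0.49) also fell. No mitosis gene passed without the WT pair or with plain limma, and 27 fell without the Smad3KO pair. Of 73 DNA replication genes 7 fell (9.59%, against 5.64% of all genes) and none rose by limma (19 lower and 0 higher at unadjusted p), with a median of -0.13. Of 49 ribosome biogenesis genes 8 fell and none rose (25 lower and 1 higher at unadjusted p), with a median of -0.17. Ribosome biogenesis members lay below 0 in 41, 41 and 45 of 49 cases in WT, Smad2KO and Smad3KO. Tcof1 was the largest fall among them (-0.42). Without the WT pair, 1 replication gene and no ribosome biogenesis gene fell.

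Ribosomal protein, proteasome and respiratory chain genes changed little. Of 46 cytosolic ribosomal protein genes none passed by limma. At an unadjusted p under 0.05, 8 were higher and 2 lower, against 1295 and 1367 of all 9464 genes. The median of the 46 was 0.14 and turned to -0.01 with quantile normalization. The median of these genes was 0.30 in WT, 0.14 in Smad2KO and -0.02 in Smad3KO, while 17 rose if the Smad3KO pair was left out. None of 37 proteasome genes passed (1 higher and 1 lower at unadjusted p), and 3 of 74 respiratory chain genes rose (0 with plain limma). Of 26 glycolysis and hypoxia genes 5 fell (19.2%, against 5.64% of all genes) and 2 rose (7.69%, close to the 7.15% of all). The hexokinase Hk2 (-0.50) and the glucose transporters Slc2a3 (-0.39) and Slc2a1 (-0.32) fell, and Egln3, an oxygen-sensing prolyl hydroxylase, rose and read 1186, 578 and 552 with TGF-b, against 123, 97.1 and 185 without it. The glycolysis and hypoxia list had 1 fall without the WT pair and 0 with plain limma.

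**Figure D5:**
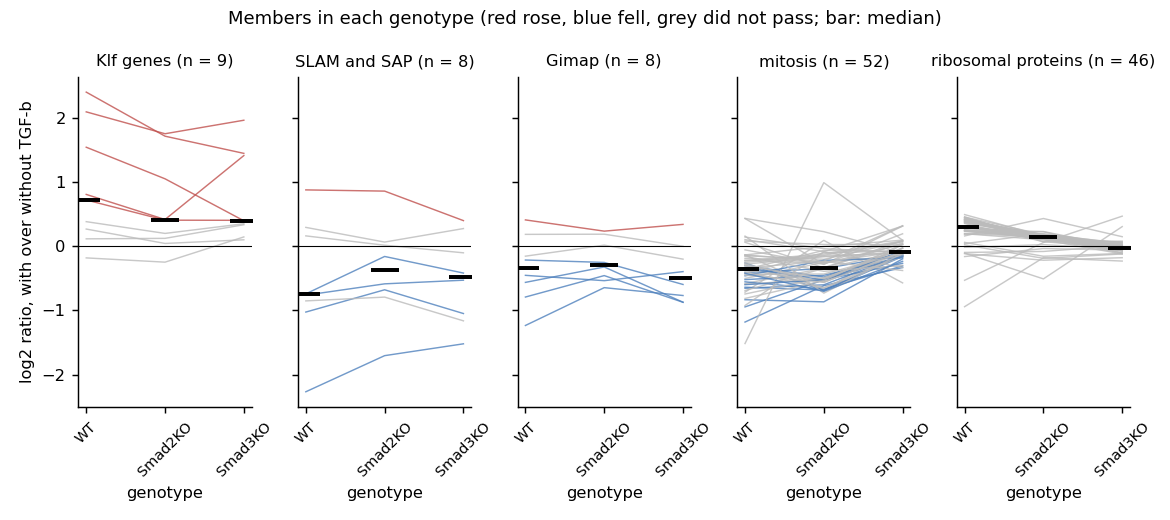
Log2 ratio of the signal with TGF-b over that without it (y axis) in each genotype (x axis) for every tested member of 5 lists, 1 line per gene. Red lines rose, blue fell, grey did not pass, and black bars are medians. Kruppel-like factors lie mostly above 0 and SLAM and Gimap genes below it in all genotypes, while the medians of mitosis (-0.35, -0.35 and -0.09) and ribosomal protein genes (0.30, 0.14 and -0.02) are nearer to 0 in Smad3KO.

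Size and repeatability did not always go together. Of the genes at 2-fold in the same direction in each genotype, 10 did not pass. Nrn1, Il2, Ifitm2 and AI504432 read lower with TGF-b and Lgals1, Timp2, Akr1c18, Ctla2b, Ctsw and Ctla2a higher. Nrn1, which encodes the surface protein neuritin, read 227, 598 and 931 with TGF-b, against 3145, 2664 and 2917 without it (mean -2.53, limma adjusted p = 0.158). Ctsw, a protease of cytotoxic lymphocytes, read 3244, 1701 and 218 with TGF-b, against 74.3, 93.6 and 15.5 without it, with a mean of at least 4.13 and an adjusted p of 0.0871. Lgals1, the galectin of effector and regulatory T cells, read 5404, 1721 and 2063 with TGF-b, against 1173, 828 and 949.7 without it (adjusted p = 0.0936). In all 10 the largest response was at least 1 log2 unit above the smallest.

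Probe sets that were not used to choose the genes gave a further measurement on the same arrays. Among 373 rises with another tested probe set, the next brightest was higher with TGF-b in 355 (95.2%, against 47.5% of all genes), and among 271 such falls it was lower in 254 (93.7%, against 52.5%). The Smad2KO_Smad3het arrays, which took no part in the choice, read higher with TGF-b for 466 of the 677 rises (68.8%, against 46.1% of all genes) and lower for 402 of the 534 falls (75.3%, against 52.4%). Median responses there were 0.24 for the rises, -0.22 for the falls and -0.02 for all genes. At 2-fold, 91 rises were higher there (13.4%, against 5.73% of all) and 35 falls lower (6.55%, close to the 5.65% of all). These arrays stood apart, with scaled medians of 106 with TGF-b and 103 without it (30.5 to 35.4 on the other arrays), and the pair is single.

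Neighbouring genes shared a call more often than the background, though most did not. The next tested gene along the chromosome, in RefSeq order, was also a rise for 80 of 674 rises (11.9%, against 7.16% of the placed genes) and also a fall for 57 of 534 falls (10.7%, against 5.65%). Runs of 5 were Gimap4, Gimap6, Gimap7, Gimap1 and Gimap5 (falls), Fam214b, Tesk1, Cd72, Sit1 and Ccdc107 (rises), and Manf, Mapkapk3, Cish, Hemk1 and 6430571L13Rik (rises). The runs, and the genes in them, were picked after their values were seen. Shorter runs held Stat5b, Stat5a and Stat3, the cytokines Osm and Lif with Mtmr3, the SLAM genes Slamf1, Cd84 and Slamf6, and the kinases Txk and Tec with Nipal1. Gene families lie in clusters, and probes of relatives may share signal, so the counts describe positions and are not a test.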

How the data were processed

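RNA of 6 cultures of naive CD4 T cells was hybridised to single-colour Affymetrix arrays, 1 per genotype and treatment. The authors deposited a linear intensity per probe set, made with GCOS 1.4 per the submitters' processing notes; its algorithm and scaling are unknown here. Of 45101 probe sets, 34945 had 1 gene symbol in the platform annotation.

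Scaling, floor and filter (at least 64.6, 2 times the floor, on 1 array) were computed on the 6 arrays, and the brightest probe set by mean stood for its gene. Besides the genes marked above, the probe sets of Gimap4, Il1rl2, Itgb5, Marcksl1, Mical1, Plec and Slc2a3 may also detect related sequences. Paired log2 values were tested with limma 3.58.1 in R 4.3.3 (genotype block, variance trend, robust), with 2 residual degrees of freedom per gene and Benjamini-Hochberg adjustment over 9464 genes. For arrays, their number limits the precision. On simulated data with 200 changed genes among 9464, 90 of 100 at 2-fold and 100 of 100 at 4-fold were recovered. There were also 26 false calls, a larger share of all calls than the adjusted p limit of 0.05 aims at.

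The rule named the 10 rises and 10 falls with the smallest p, the 10 largest of each, up to 5 changed members per family and direction, members that did not pass where a family is described, and Smad7, Foxp3, Il2, Nt5e, Vim, Maf, Ccr8 and Stat4. Smad2, Smad3, Nrn1, Ctsw and Lgals1 were added. Members and lists were chosen with earlier results of these data known. Alternatives covered normalization, floor, filter, probe sets, block, variance model, left-out pairs and all 8 arrays. Figures used matplotlib 3.10.9.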

Additional observations from a re-analysis of the deposited data

Results flagged for a closer look

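In 5 of the 9464 genes tested, 2 genotypes moved by 2-fold in opposite directions, each on 1 pair of arrays, so the difference was not tested. The log2 responses were 1.24 in WT and -1.001 in Smad2KO for Basp1, 1.47 and -1.30 for Cphx3, 1.03 and -1.27 for Dhrsx, and 1.04 and -1.18 for Pklr. For Bahcc1 they were 1.01 in Smad3KO and -1.01 in Smad2KO. None of the 5 passed limma (adjusted p of 0.701 to 0.920), and every signal of the 5 lay between 6.48 and 100.4, close to the floor of 32.3. Each group held 3 arrays, so no array was tested for standing apart within its group.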

How the results depend on the processing

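Quantile normalization gave 645 rises and 550 falls, of which 623 and 491 were shared with the 677 and 534 reported, and centring on the median 711 and 467. The floor at the 75th percentile gave 387 and 348, no filter 305 and 154, no replicate block 370 and 230, and plain limma without trend and robust settings 267 and 125. All 8 arrays gave 15 and 4. Leaving out 1 pair gave 262 to 1012 rises and 164 to 988 falls. Genes at 2-fold higher in all genotypes were 161 with the floor at the 25th percentile, 40 at the 75th percentile and 39 over all 8 arrays, and 101 to 215 with 1 pair left out; those lower were 86, 12, 4, and 46 to 84. The cause of these changes was not tested. No paired analysis beyond the genotype block was possible because each genotype and treatment has 1 array.

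Of 216 named genes that passed, 133 still passed with plain limma, 140 without the WT pair and 147 with no filter. With all 8 arrays 13 of 215 did. Itgb5 turned to 0.49 with all 8 arrays, the only reversal among them. Among genes that did not pass, Tbx21 ran from -0.24 to 0.14 with 1 pair left out and was 0.023 with all 8 arrays. Bahcc1 was 0.23 with the lower floor, 0.026 with no floor and 0.000759 without the WT pair. With 1 pair left out, Basp1 ran from -0.26 to 0.85, Cphx3 from -0.59 to 0.78, Dhrsx from -0.77 to 0.44 and Pklr from -0.79 to 0.37.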
